A study of Rattus norvegicus with 8 samples.

Results

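The comparison described here is the effect of GW3965 in the livers of dexamethasone-treated rats, read as the 2 arrays of Dex+GW3965 liver against the 2 arrays of Dex liver, which are 4 of the 8 arrays of the series. Male Sprague-Dawley rats weighing 180 to 200 g received GW3965 (50 mg/kg) or vehicle by gavage over 3 days. On the last day dexamethasone (1.5 mg/kg) or saline was injected intramuscularly. Livers were taken 24 h later, and 5 µg of RNA was hybridized to Affymetrix rat genome arrays. The Dex group received the gavage vehicle and dexamethasone, the Dex+GW3965 group received both compounds, the GW3965 group received GW3965 and saline, and the vehicle group received neither compound. The GW3965 and vehicle arrays, 2 in each group, added to the estimate of the residual spread and gave the effect of GW3965 without dexamethasone. In the labels the arrays of a group carry 1 shared liver number and differ by a letter, a or b, whereas the methods describe 2 animals per group. The p-values therefore measure only the spread between these arrays. The level of an animal and the effect of the treatment cannot be told apart if both arrays came from 1 liver. The features were the probe sets, other than Affymetrix controls, that lay above the median of their array on at least 2 of the 8 arrays, which were 16253 of 31042. A probe set that passed this filter through only 1 of the compared groups had to differ, so passing it is no support for a change. Values are log2 signals, the median difference between the arrays of a group was 0.0698 to 0.089, and a group mean under 5.49, the mean of the array medians, is called not above background.

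The GR is the nuclear receptor through which dexamethasone acts, and in liver it raises genes of glucose output and amino acid breakdown while it represses inflammatory genes. GW3965 is a synthetic agonist of the LXRs, nuclear receptors for oxysterols that form heterodimers with RXR and are known for genes of cholesterol efflux, bile acid synthesis and fatty acid synthesis. Interferon-stimulated genes are antiviral genes switched on through STAT and IRF factors, and growth hormone acts on hepatocytes through STAT5. The RNA came from whole liver, and the hepatocyte marker Alb lay at 14.90 and 14.95 in Dex and 14.92 and 14.89 in Dex+GW3965 liver. Because whole tissue was measured, fewer cells of a type and less RNA per cell cannot be told apart.

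Interferon-stimulated genes and Cish, a suppressor of cytokine signaling and a standard STAT5 target, were among the genes that were higher with GW3965 in dexamethasone-treated liver, and promoter windows of 5 of them are shown first because they hold the matching motifs. The windows run from 250 bases before to 50 bases after the start of the gene in RefSeq on the GRCr8 build, 5′ to 3′ on the strand of the gene. Capitals in the first 4 mark GAAANNGAA, the core of the interferon-stimulated response element, on either strand, and capitals in the window of Cish mark TTCNNNGAA, a STAT site, which reads the same on both strands. The first 4 were chosen after their values were seen, as the listed interferon-stimulated genes with the largest rises from a level above background whose window holds the motif. Outside that list Ifgga2l1 and Foxa2, which rose further, each held 1 match.
Cxcl10, chr14:15988816-15989115, plus strand: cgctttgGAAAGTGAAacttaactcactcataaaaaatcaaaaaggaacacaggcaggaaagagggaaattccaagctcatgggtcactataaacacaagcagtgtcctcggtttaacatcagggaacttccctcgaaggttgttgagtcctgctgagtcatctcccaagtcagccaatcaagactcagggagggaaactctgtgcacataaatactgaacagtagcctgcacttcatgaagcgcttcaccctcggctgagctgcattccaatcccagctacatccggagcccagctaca
Gbp2, chr2:234005477-234005776, plus strand: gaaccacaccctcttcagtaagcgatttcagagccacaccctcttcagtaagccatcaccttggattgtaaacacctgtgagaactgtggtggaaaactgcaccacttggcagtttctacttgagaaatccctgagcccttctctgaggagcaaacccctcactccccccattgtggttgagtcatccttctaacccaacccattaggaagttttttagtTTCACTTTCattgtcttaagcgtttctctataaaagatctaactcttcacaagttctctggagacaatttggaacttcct
Ddx60, chr16:33208790-33209089, minus strand: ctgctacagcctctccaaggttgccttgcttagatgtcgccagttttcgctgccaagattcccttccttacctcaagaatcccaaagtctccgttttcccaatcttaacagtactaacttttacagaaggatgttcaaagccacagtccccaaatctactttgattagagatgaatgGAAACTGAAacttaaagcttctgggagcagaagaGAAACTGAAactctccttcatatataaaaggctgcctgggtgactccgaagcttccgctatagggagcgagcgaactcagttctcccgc
Ifi44l, chr2:243328473-243328772, plus strand: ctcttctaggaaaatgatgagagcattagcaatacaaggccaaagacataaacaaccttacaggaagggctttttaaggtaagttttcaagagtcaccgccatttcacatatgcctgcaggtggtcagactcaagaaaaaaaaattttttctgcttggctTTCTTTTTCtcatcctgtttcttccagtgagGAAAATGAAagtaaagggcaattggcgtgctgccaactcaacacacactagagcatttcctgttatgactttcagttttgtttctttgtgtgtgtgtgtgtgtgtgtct
Cish, chr8:116850719-116851018, plus strand: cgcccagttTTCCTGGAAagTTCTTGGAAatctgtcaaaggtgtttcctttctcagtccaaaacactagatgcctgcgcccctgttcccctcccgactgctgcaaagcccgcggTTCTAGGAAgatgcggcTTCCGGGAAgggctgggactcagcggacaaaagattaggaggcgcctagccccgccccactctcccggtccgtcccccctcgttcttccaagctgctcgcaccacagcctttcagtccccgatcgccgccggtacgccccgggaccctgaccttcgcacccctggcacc

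The window of Cish held 4 STAT matches, those of Ddx60 and Ifi44l held 2 response elements each, and those of Cxcl10 and Gbp2 held 1 each. A window was found for 8235 of the 9829 genes with a named probe set, the first one listed where a gene has several, and GAAANNGAA was present in 595 of them, or 7.23%. It was present in 22 of the 33 windows of the interferon-stimulated genes that rose, or 66.7%, in 16 of the 41 windows of all genes that rose at least 2-fold, or 39%, and in 1 of the 28 windows of genes that fell at least 2-fold, or 3.57%. Genes of the first set overlap with the second, and they are defined by a response to interferon. Over all listed interferon-stimulated genes that passed the filter, risen or not, GAAANNGAA was in 24 of 38 windows, or 63.2%. The 33 windows are among these 38, so the shares cannot tell whether the motif sets apart the members that rose. TTCNNNGAA was present in 557 of all windows, or 6.76%, in 10 of the 33, or 30.3%, in 8 of the 41, or 19.5%, and in 1 of the 28, or 3.57%. In the 38 windows of the whole interferon list it was present in 12, or 31.6%. Matches of these motifs shared bases in 8 of all windows and in 0 of the 33. ACANNNTGT, the core of a GR site, which reads the same on both strands, was present in 3.9% of all windows, in 12.2% of those of genes that rose at least 2-fold, in 0 of the 28 of genes that fell at least 2-fold, and in 1 of the 16 windows of the GR targets that fell, or 6.25%. AGGTCA, the recognition sequence of many nuclear receptors, was in 14.6% of the windows of genes that rose at least 2-fold, in 17.9% of those that fell at least 2-fold and in 12.3% of all windows. GCGTG, the dioxin response core, was in 29.3%, 50% and 49.9% of these windows, and CCAAT, the NF-Y site, in 53.7%, 42.9% and 38.3%. The E-box CACGTG was in 0%, 7.14% and 9.67%, and GGGANNNCC, an NF-κB site, in 7.32%, 21.4% and 22.9%. Both strands were searched, and a match describes the letters of the window and not binding.

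Limma called 3698 probe sets different between Dex+GW3965 and Dex at an adjusted p under 0.05, of which 2173 were higher, or 13.4% of those tested, and 1525 were lower, or 9.38%. After quantile normalization the split was 1940 higher and 1816 lower. The median size of a called difference was 0.329 on the log2 scale, and 166 probe sets changed at least 2-fold, 104 higher and 62 lower. The count of calls was 2376 without Dex+GW3965 replicate b and 2401 without Dex replicate b. The higher calls numbered 1415 without Dex replicate b, and the lower calls numbered 941 without Dex replicate a, 986 without Dex replicate b and 904 without Dex+GW3965 replicate b. When each of 9829 genes was read on its brightest probe set, 1395 were higher, or 14.2%, and 1020 were lower, or 10.4%, with 55 higher by at least 2-fold, or 0.56%, and 37 lower by at least 2-fold, or 0.376%. The median difference over these genes was -0.0035. These shares are the background for the counts of list members below, which are given over the members that passed the filter on low values.

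Of the receptors that the compounds bind, the GR gene was higher in Dex+GW3965 liver and the LXR genes were not called different. Nr3c1, the gene of the GR, measured 8.25 and 8.20 on the Dex arrays and 8.78 and 8.87 on the Dex+GW3965 arrays, with 9.04 and 8.90 in vehicle and 9.31 and 9.21 in GW3965 liver. Dex liver was the lowest of the 4 groups, and Nr3c1 rose by 0.60 ± 0.062 (SE) on the log2 scale with GW3965 (adjusted p = 1.1e-06, limma). Its dimmer second probe set differed by 0.08 (adjusted p = 0.68, limma). Nr1h3, the gene of LXRα, differed by 0.07 (adjusted p = 0.32), Nr1h2, the gene of LXRβ, by 0.02 (adjusted p = 0.86) and Rxra, the gene of their partner RXRα, by -0.18 (adjusted p = 0.093, limma for all).

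Among glucocorticoid-responsive genes, more were lower than higher when GW3965 was added to dexamethasone. Of 32 GR targets listed, 30 passed the filter, 17 of them fell (56.7%, against 10.4% of all genes), 5 rose and 8 were not called, with a list median of -0.28. The rises numbered 3 without Dex replicate b or the intensity trend, by which limma lets the spread vary with signal. Tat, the tyrosine aminotransferase that is a classical glucocorticoid-induced enzyme of liver, measured 12.06 and 12.08 on the Dex arrays and 10.18 and 10.12 on the Dex+GW3965 arrays, with 11.02 and 11.03 in vehicle and 10.48 and 10.54 in GW3965 liver. Dex liver was the highest of the 4 groups, and Tat was 3.78-fold lower with GW3965 (-1.92 ± 0.039 on the log2 scale, SE, adjusted p = 6.5e-16, limma). Sds, the serine dehydratase that turns serine into pyruvate, measured 11.19 and 11.39 in Dex, 9.54 and 9.55 in Dex+GW3965, 7.84 and 7.69 in vehicle and 7.54 and 7.42 in GW3965 liver. Sds was 3.35-fold lower in Dex+GW3965 than in Dex liver (adjusted p = 3e-12, limma). Got1, the cytosolic aspartate aminotransferase, which is on the glucose output list, measured 12.33 and 12.34 in Dex, 10.93 and 10.92 in Dex+GW3965, 10.12 and 10.13 in vehicle and 9.77 and 9.77 in GW3965 liver. Got1 fell 2.66-fold from Dex (adjusted p = 1.9e-14, limma). For all 3 enzymes the Dex arrays lay above the Dex+GW3965 arrays without overlap, as they did for 30.9% of all genes. The absence of overlap was part of the rule that chose the 15 largest rises and the 15 largest falls, so it says nothing further about genes named from these.

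The same direction was seen for regulators of metabolism and growth that glucocorticoids induce. Igfbp1, a liver-secreted binding protein of the insulin-like growth factors, measured 11.20 and 11.27 in Dex, 9.74 and 9.70 in Dex+GW3965, 7.91 and 8.17 in vehicle and 8.17 and 8.14 in GW3965 liver. The Dex+GW3965 arrays lay below the Dex arrays and above the vehicle arrays, and the difference from Dex was -1.51 ± 0.067 (SE, adjusted p = 1.7e-11, limma). Lpin1, a phosphatidate phosphatase and coactivator, measured 11.50 and 11.53 in Dex, 9.93 and 9.99 in Dex+GW3965, 8.43 and 8.49 in vehicle and 8.53 and 8.55 in GW3965 liver. Lpin1 fell 2.94-fold from Dex (adjusted p = 1.1e-13, limma). Its second probe set fell by 1.62 on the log2 scale. Fkbp5, a cochaperone of the GR, measured 9.83 and 9.71 in Dex, 8.38 and 8.36 in Dex+GW3965, 6.56 and 6.62 in vehicle and 6.27 and 6.25 in GW3965 liver. Fkbp5 fell 2.64-fold from Dex (adjusted p = 7.4e-11, limma). Cdkn1a, the cyclin-dependent kinase inhibitor p21, measured 9.93 and 9.80 in Dex, 8.64 and 8.59 in Dex+GW3965, 7.5 and 7.56 in vehicle and 8.09 and 8.09 in GW3965 liver. Cdkn1a fell 2.38-fold from Dex (adjusted p = 5.5e-11, limma). In all 3 of these genes Dex liver was the highest of the 4 groups. Tsc22d3, which encodes the glucocorticoid-induced leucine zipper, measured 10.54 and 10.44 in Dex, 9.76 and 9.84 in Dex+GW3965, 8.98 and 8.85 in vehicle and 8.82 and 8.87 in GW3965 liver. Tsc22d3 fell 1.61-fold from Dex (adjusted p = 5.5e-08, limma). The members that rose were Pdk4, the kinase that blocks pyruvate dehydrogenase, by 0.91, the metallothionein Mt2A by 0.66, glutamine synthetase Glul by 0.26, Gadd45g by 0.25 and the kinase Sgk1 by 0.24 on the log2 scale.

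**Figure D1:**
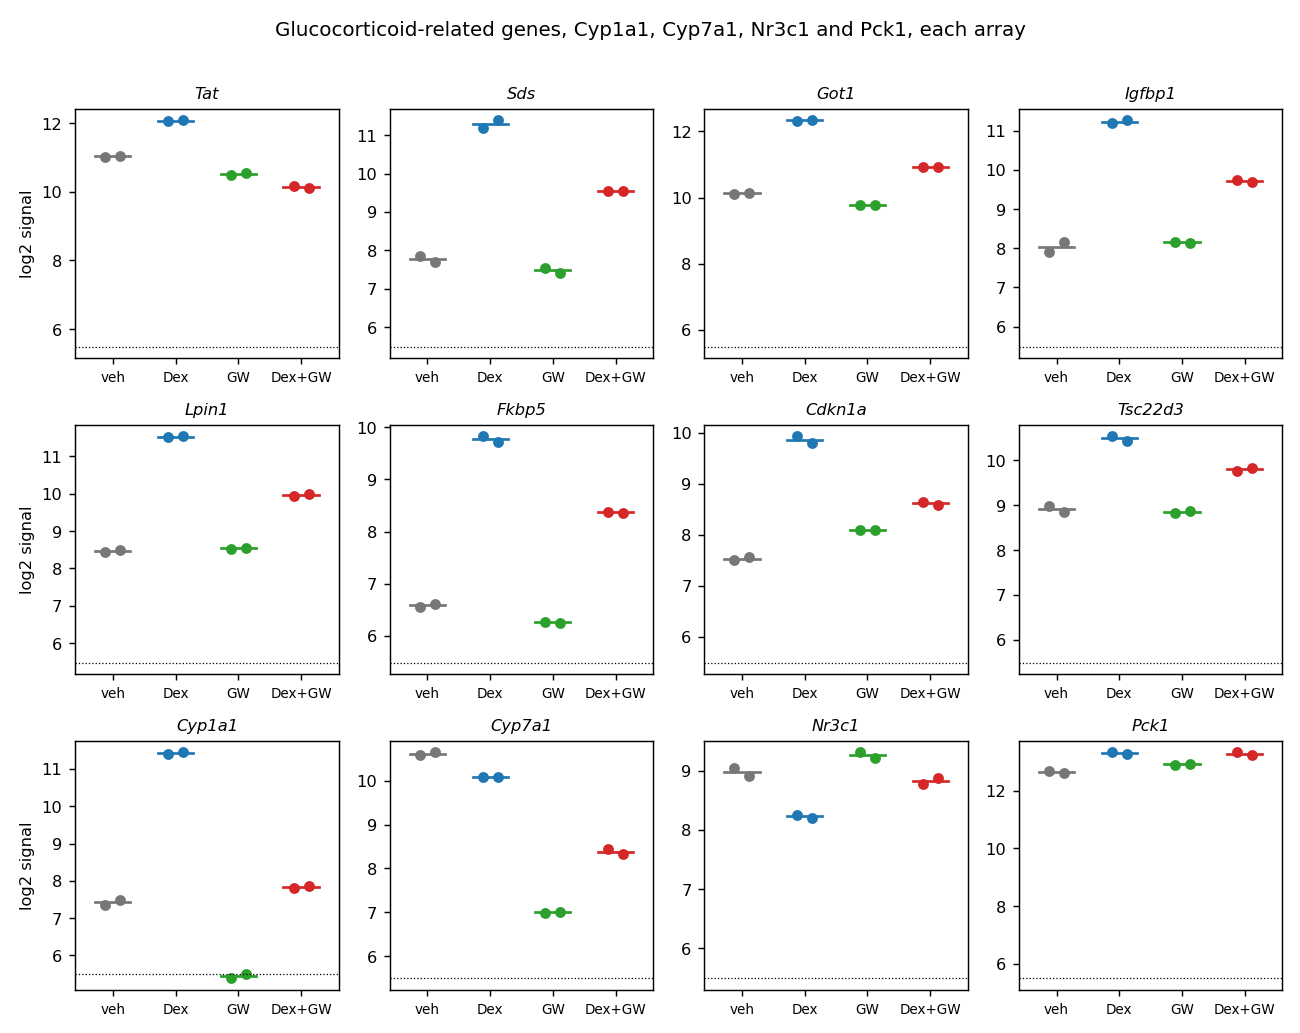
Log2 signal (y axis, own scale in each panel) of 12 genes on each array (points) of the 4 groups, with bars for group means and a dotted line at 5.49, below which a mean is not above background. Tat, Sds, Got1, Igfbp1, Lpin1, Fkbp5, Cdkn1a, Tsc22d3, Cyp1a1 and Cyp7a1 were lower in Dex+GW3965 than in Dex liver, Nr3c1 was higher, and the Pck1 arrays of both groups overlapped.

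Genes of glucose output moved unequally. G6pc1, the catalytic subunit of glucose-6-phosphatase, measured 12.83 and 12.95 in Dex, 11.91 and 11.87 in Dex+GW3965, 11.51 and 11.56 in vehicle and 11.91 and 12.04 in GW3965 liver. The Dex arrays were the highest, and G6pc1 was 2-fold lower in Dex+GW3965 than in Dex liver (adjusted p = 2.2e-11, limma). Its probe set carries no single symbol and was named by its target transcript, so it is in no list. Another 3 probe sets carry the same several symbols but were not matched to its transcript, so they may read other genes. Of these 1 fell by 1.05 on the log2 scale and 2 differed by -0.15 and -0.03 without a call (adjusted p = 0.21 and 0.80, limma). Pck1, the cytosolic phosphoenolpyruvate carboxykinase, measured 13.33 and 13.25 in Dex and 13.32 and 13.23 in Dex+GW3965 liver, which overlapped (-0.02 ± 0.039, SE, adjusted p = 0.77, limma), with 12.67 and 12.61 in vehicle and 12.89 and 12.92 in GW3965 liver. H6pd, the hexose-6-phosphate dehydrogenase that supplies NADPH for the reactivation of glucocorticoids, measured 11.17 and 11.12 in Dex, 10.58 and 10.51 in Dex+GW3965, 9.91 and 9.97 in vehicle and 9.71 and 9.69 in GW3965 liver. H6pd fell 1.51-fold from Dex (adjusted p = 1.5e-08, limma). Of 22 genes listed for gluconeogenesis and glucose output, 20 passed the filter, 9 fell (45%), 1 rose and 10 were not called, with a list median of -0.12. The single rise was that of Mpc1 (0 without Dex+GW3965 replicate b or the intensity trend and 2 after quantile normalization). After Tat, Sds and Got1 the furthest falls were those of the coactivator Ppargc1a by 0.78 and the transcription factor Foxo1 by 0.47 on the log2 scale.

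Glycolytic genes fell in 6 of 19, furthest Pfkfb1, a regulator of phosphofructokinase activity, by 0.51 on the log2 scale, and rose in 2 (1 without the intensity trend). The falls numbered 2 without Dex+GW3965 replicate b or the intensity trend. In glycogen metabolism 4 of 12 rose, led by glycogenin Gyg1 by 0.39, and 0 fell (1 after quantile normalization), with 2 rises without the intensity trend. In insulin and IGF signaling 4 of 23 rose, led by the insulin receptor substrate Irs2 by 0.52 (adjusted p = 0.00064, limma). In that list 6 fell, led by Igfbp1 and by Ddit4, an inhibitor of mTOR signaling, by 0.82 on the log2 scale. In amino acid breakdown and the urea cycle 13 of 39 fell (33.3%) and 7 rose (17.9%). Beside Tat, Sds and Got1 the furthest falls there were those of Psat1 and Phgdh, enzymes of serine synthesis, by 0.84 and 0.48 on the log2 scale. The largest rises were those of Bckdhb, a subunit of branched-chain ketoacid dehydrogenase, by 0.60 and of Cth, which makes cysteine, by 0.50 on the log2 scale. Of 14 amino acid transporters 4 fell, led by the neutral amino acid carrier Slc38a2 by 0.78 on the log2 scale, and 2 rose (1 without Dex replicate a, Dex replicate b, Dex+GW3965 replicate b, the intensity trend or a filter or after quantile normalization).

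Of the pathway lists, the interferon-stimulated genes had the largest share of members called higher. Of 63 listed, 51 had a probe set named here and 49 passed the filter, of which 41 rose (83.7%, against 14.2% of all genes), 0 fell and 8 were not called. Their median difference was 0.77, 17 rose at least 2-fold by the fitted difference, and the count of rises ranged from 40 to 42 over the alternatives. The 17 include Oas1b, whose Dex level was not above background. Isg15, a ubiquitin-like modifier, measured 11.38 and 11.38 in Dex, 12.92 and 12.86 in Dex+GW3965, 7.43 and 7.79 in vehicle and 8.41 and 8.53 in GW3965 liver. The arrays of Dex and Dex+GW3965 did not overlap, as in 31.1% of all genes in this direction, and the rise over Dex was 2.85-fold (1.51 ± 0.078, SE, adjusted p = 1.4e-10, limma). Mx2, an antiviral GTPase, measured 8.55 and 8.37 in Dex, 10.08 and 10.27 in Dex+GW3965, 4.90 and 5.19 in vehicle and 6.03 and 6.17 in GW3965 liver. Mx2 rose 3.29-fold over Dex (adjusted p = 8.3e-10, limma), and by 1.09 on the log2 scale on its second probe set. Herc6, a ligase that attaches Isg15 in rodents, measured 7.12 and 7.16 in Dex, 8.83 and 9.05 in Dex+GW3965, 5.46 and 5.45 in vehicle and 5.99 and 5.72 in GW3965 liver. Herc6 rose 3.48-fold over Dex (adjusted p = 5.3e-10, limma). Cxcl10, a chemokine that attracts T cells, measured 6.65 and 6.75 in Dex, 8.43 and 8.25 in Dex+GW3965, 5.51 and 5.18 in vehicle and 6.15 and 6.33 in GW3965 liver. Cxcl10 rose 3.11-fold over Dex (adjusted p = 6.8e-09, limma). The Dex+GW3965 arrays lay above the Dex arrays for all 3, as the rule that chose them required.

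Oas1b, an oligoadenylate synthetase, measured 4.33 and 4.02 in Dex liver, which is not above background, and 6.24 and 5.89 in Dex+GW3965 liver. Its rise was at least 0.58 on the log2 scale. Oas1b passed the filter through the Dex+GW3965 arrays alone, so its call is no support for a change. Other genes whose promoters are printed above rose as well, Gbp2, an interferon-inducible GTPase, from 6.17 and 6.03 in Dex to 7.55 and 7.47 in Dex+GW3965 liver, Ddx60, an RNA helicase, from 5.76 and 5.54 to 6.98 and 7.15, and Ifi44l from 8.42 and 8.32 to 9.74 and 9.80. The arrays of these groups did not overlap, and these genes were picked for the size of their rises. Ifgga2l1, by its symbol a gene of the interferon-inducible GTPases, was not on the list and measured 9.57 and 9.56 in Dex and 11.69 and 11.98 in Dex+GW3965 liver. Ifgga2l1 rose 4.83-fold (adjusted p = 1.2e-11, limma). Of 3 further genes, chosen after their values were seen, the rises were smaller, with 0.49 for Oas1a, an oligoadenylate synthetase, 0.61 for Usp18, which removes Isg15 from proteins, and 0.52 for Ifit3, of the same family as Ifit1, on the log2 scale. The 8 members not called were Zbp1, Adar, Sp100, Trim25, Bst2, Ifi27, Irf9 and Ifit1, with fitted differences from -0.24 to 0.34.

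**Figure D2:**
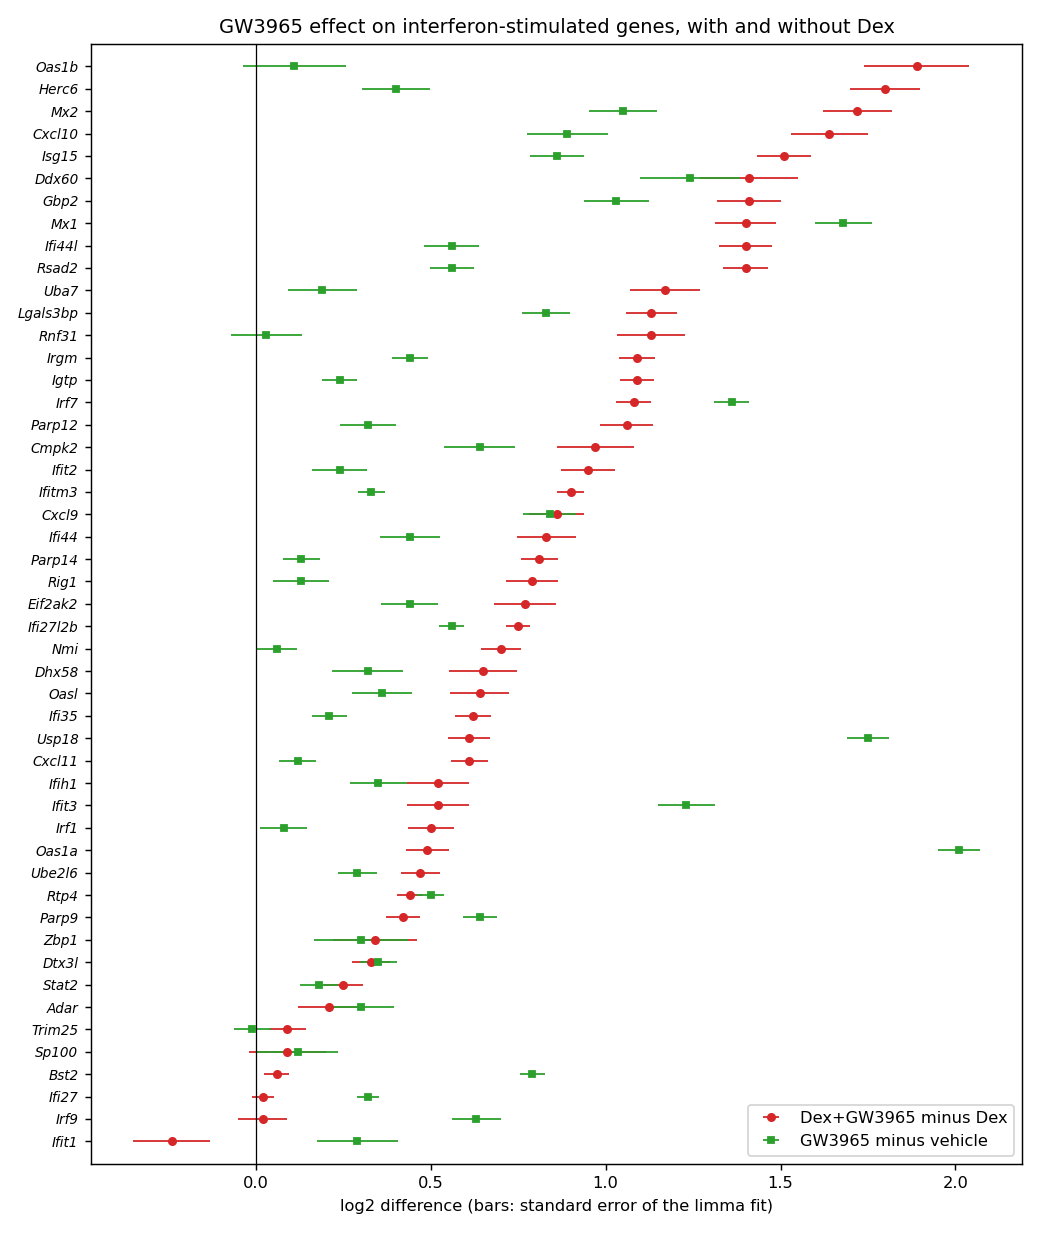
Log2 difference of each of 49 interferon-stimulated genes for Dex+GW3965 minus Dex and for GW3965 minus vehicle, with bars for the standard error of the limma fit. Differences for Dex+GW3965 minus Dex reach from -0.24 for Ifit1 to 1.89 for Oas1b, whose Dex level was not above background, and the values of Oas1a and Usp18 for GW3965 minus vehicle, 2.01 and 1.75, lie to the right of those with Dex.

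Without dexamethasone GW3965 raised 37 of the 49 genes and lowered 0, against 5.9% and 15.9% of all genes, with a median of 0.36. The difference between the effects with and without dexamethasone was called positive in 24 (16.9% of all genes) and negative in 9 (7.3% of all genes). For Isg15 the effects were 1.51 and 0.86 and differed by 0.65 ± 0.11 (SE, adjusted p = 0.00031, limma). For Oas1a they were 0.49 and 2.01 and differed by -1.53 ± 0.086 (SE, adjusted p = 7.3e-10, limma). For Usp18 they were 0.61 and 1.75 (adjusted p of the difference = 2.5e-08, limma). Genes of interferon reception and induction rose in 4 of 16 that passed the filter (2 without Dex replicate b or Dex+GW3965 replicate a) and fell in 1 (0 without Dex replicate b, Dex+GW3965 replicate b or the intensity trend or with probe sets averaged and 2 after quantile normalization). Myd88, an adaptor of Toll-like receptors, rose by 0.25, and Ifnar1, of the receptor for type I interferon, differed by 0.05 (adjusted p = 0.75, limma). The interferon genes Ifnb1 and Ifng were below the filter.

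Class I antigen presentation genes rose in 11 of 18 (61.1%) and fell in 0, with a median of 0.20. Psmb9, an immunoproteasome subunit, measured 8.62 and 8.49 in Dex, 9.40 and 9.45 in Dex+GW3965, 8.54 and 8.65 in vehicle and 9.35 and 9.27 in GW3965 liver. The arrays of Dex and Dex+GW3965 did not overlap, with a rise of 1.83-fold (adjusted p = 6.4e-09, limma). Tap1, the peptide transporter, rose by 0.58 and Psmb8, a second immunoproteasome subunit, by 0.47 (adjusted p = 0.00086 and 6e-07, limma). Class I genes of the RT1 family share sequence, so their probe sets may read more than 1 of them. Of 9 class II genes 5 rose, among them RT1-Da by 0.61 and the invariant chain Cd74 by 0.47, and 2 fell (1 without Dex replicate a), furthest RT1-DMa by 0.62 on the log2 scale, with 3 rises without the intensity trend.

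Among cytokine and inflammation genes 11 of 29 rose (37.9%) and 4 fell (2 without Dex replicate a, Dex+GW3965 replicate a or the intensity trend). Cxcl12, a chemokine that retains leukocytes, measured 9.27 and 9.30 in Dex, 10.08 and 10.01 in Dex+GW3965, 11.60 and 11.69 in vehicle and 11.92 and 11.91 in GW3965 liver. Dex liver was the lowest group (0.75 ± 0.043 over Dex, SE, adjusted p = 5.1e-10, limma). Ccl9, a chemokine of myeloid cells, measured 11.71 and 11.78 in Dex, 12 and 12.09 in Dex+GW3965, 12.92 and 12.86 in vehicle and 12.62 and 12.55 in GW3965 liver. Ccl9 rose by 0.30 over Dex (adjusted p = 2.8e-05, limma). Il1b rose by at least 0.84 from a level not above background in Dex liver, the endotoxin coreceptor Cd14 rose by 0.59 and the chemokine Ccl4 by 0.66, while the NF-κB inhibitor Nfkbia fell by 0.78 and the receptor Il6r by 0.58 on the log2 scale.

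Markers of the blood and immune cells that also carry such transcripts gave the following values, and their part in the interferon and cytokine results was not tested. Of 15 Kupffer cell markers 12 passed the filter, 6 rose (2 without Dex replicate b or the intensity trend) and 1 fell (0 without Dex replicate a, Dex+GW3965 replicate a or Dex+GW3965 replicate b), with a summed linear signal of 5889 and 5818 in Dex and 6582 and 6457 in Dex+GW3965 liver. Aif1 rose by 0.60 on its brightest probe set and differed by 0.01 (adjusted p = 0.98, limma) on the other, and Clec4f, a defining marker of Kupffer cells, rose by 0.15. Of 13 T and NK cell markers 5 passed the filter, and Cd3e, Cd3d, Cd3g, Cd2 and Cd8a did not. Of those that passed 1 rose (2 without a filter and 0 without any 1 of the 4 compared arrays or with a filter of at least 4 arrays), with a summed signal of 274 and 267 in Dex and 287 and 282 in Dex+GW3965 liver. Of 7 plasmacytoid dendritic cell markers 3 passed and 1 rose (2 without a filter and 0 without Dex replicate a or Dex+GW3965 replicate a), with sums of 337 and 343 in Dex and 375 and 350 in Dex+GW3965 liver. The 3 neutrophil markers of 9 that passed summed to 102 and 109 in Dex and 140 and 141 in Dex+GW3965 liver. Of these only S100a9 was called higher (2 markers without the intensity trend or after quantile normalization), by at least 0.41 from a Dex level not above background. Means over the 8 arrays were under 5.49 for 1 of the 3 neutrophil markers and 2 of the 5 T and NK cell markers. Their sums therefore rest in part on levels not above background. The 3 B and plasma cell markers of 8 summed to 234 and 245 in Dex and 270 and 265 in Dex+GW3965 liver. All 3 erythrocyte markers that passed fell, Hbb by 0.47, Slc4a1 by 0.51 and Alas2 by 0.62 on the log2 scale, with sums of 12383 and 12117 in Dex and 8900 and 8738 in Dex+GW3965 liver. Sinusoidal endothelial markers fell in 4 of 8 (1 without the intensity trend and 2 without Dex replicate a, Dex replicate b or Dex+GW3965 replicate a), furthest Stab2 by 0.37 on the log2 scale, with sums of 3358 and 3370 in Dex and 2955 and 2959 in Dex+GW3965 liver. Matrix and stellate cell markers fell in 3 of 14, among them Dcn by 0.66, and rose in 3 (1 without Dex replicate a, Dex+GW3965 replicate a or Dex+GW3965 replicate b), with sums of 5859 and 5601 in Dex and 5334 and 5289 in Dex+GW3965 liver. Lum, 1 of those rises, was not above background in either group. Of 4 cholangiocyte markers 2 rose (1 without Dex replicate a, Dex+GW3965 replicate a, Dex+GW3965 replicate b, the intensity trend or a filter), among them Epcam by 0.88, with sums of 362 and 357 in Dex and 556 and 549 in Dex+GW3965 liver. Hepatocyte markers summed to 178427 and 182621 in Dex and 179806 and 180883 in Dex+GW3965 liver, and 1 of 13 rose (0 without the intensity trend or with probe sets averaged) and 2 fell (1 without Dex replicate b or the intensity trend or with probe sets averaged). The rise was that of Cps1, an enzyme of the urea cycle, at 0.23 on its brightest probe set and -0.10 (adjusted p = 0.036, limma) on the other. Of 6 testis and prostate markers, which liver is not known for, 2 rose, Pbsn by 1.05 and Prm1 by at least 0.25. Pbsn, the prostate protein probasin, measured 6.72 and 6.70 in Dex, 7.80 and 7.72 in Dex+GW3965, 8.38 and 8.39 in vehicle and 5.22 and 5.27 in GW3965 liver.

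Growth hormone and STAT5 targets held the largest rise of a gene with a single symbol. Cish measured 6.03 and 5.98 on the Dex arrays and 8.64 and 8.67 on the Dex+GW3965 arrays, with 8.01 and 8.02 in vehicle and 8.42 and 8.50 in GW3965 liver. Dex liver was the lowest group, and the rise over Dex was 6.26-fold (2.65 ± 0.067, SE, adjusted p = 1.3e-14, limma), with 1.94 on its second probe set. Of 20 genes listed, 19 passed the filter, 9 rose (47.4%), 2 fell and 8 were not called, with a median of 0.13. Socs2, another suppressor of cytokine signaling, measured 6.14 and 5.84 in Dex, 7.33 and 7.35 in Dex+GW3965, 7.49 and 7.54 in vehicle and 8.62 and 8.44 in GW3965 liver. Socs2 rose 2.55-fold over Dex (adjusted p = 9.3e-09, limma). Onecut1, a liver-enriched factor also known as HNF6, measured 6.92 and 6.69 in Dex, 8.73 and 8.73 in Dex+GW3965, 7.73 and 7.82 in vehicle and 10.11 and 10.06 in GW3965 liver. Onecut1 rose 3.79-fold over Dex (adjusted p = 1.7e-12, limma), and by 1.29 on the log2 scale on its second probe set. Cyp2c12, a steroid hydroxylase that is predominant in female rat liver, measured 8.48 and 8.45 in Dex, 10.22 and 10.51 in Dex+GW3965, 10.49 and 10.29 in vehicle and 11.26 and 11.17 in GW3965 liver. Cyp2c12 rose 3.73-fold over Dex (adjusted p = 3.7e-12, limma). The Dex arrays were the lowest of all groups for these 3 genes, and since Cyp2c genes are near copies of each other, their probe sets may read more than 1 of them. Ccnd1, the cyclin of G1 phase, rose 2.47-fold on its brightest probe set, from 6.66 and 6.40 to 7.78 and 7.90, and by 0.87 and 0.59 on the log2 scale on the others.

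The members of that list that fell were Bcl6, a repressor of STAT targets, and the EGF receptor Egfr. Bcl6 measured 9.86 and 9.88 in Dex, 8.39 and 8.40 in Dex+GW3965, 8.90 and 8.94 in vehicle and 7.37 and 7.48 in GW3965 liver. Bcl6 fell 2.79-fold from Dex (adjusted p = 2.8e-12, limma). Without dexamethasone the effect was -1.49 (adjusted p of the difference = 0.93, limma). Egfr measured 9.98 and 10 in Dex and 8.70 and 8.61 in Dex+GW3965 liver, without overlap, and fell 2.52-fold on its brightest probe set (adjusted p = 9.2e-13, limma). The others differed by -0.61 and 0.20 on the log2 scale, the last not called (adjusted p = 0.21, limma). Igfals, the acid-labile subunit that carries IGF1, rose by 0.41 and the receptor Ghr by 0.38, while Igf1 itself differed by 0.13 (adjusted p = 0.054) and the male-predominant Cyp2c11 by 0.08 (adjusted p = 0.063, limma for both).

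Liver-enriched transcription factors and nuclear receptors rose in 10 of 22 (45.5%) and fell in 4. Hhex, a homeobox factor of liver development, measured 9.71 and 9.77 in Dex, 11.49 and 11.48 in Dex+GW3965, 10.96 and 10.91 in vehicle and 11.40 and 11.34 in GW3965 liver. Dex was the lowest group, without overlap. The rise over Dex was 3.37-fold (1.75 ± 0.04, SE, adjusted p = 3.6e-15, limma). Foxa2, a forkhead pioneer factor, measured 7.56 and 7.49 in Dex, 9.19 and 9.20 in Dex+GW3965, 9.07 and 9.07 in vehicle and 9.15 and 9.09 in GW3965 liver. Dex was again the lowest (3.18-fold over Dex, adjusted p = 2.9e-13, limma). Cebpa rose by 0.33, and Cebpb, a factor of the same family, fell by 0.90 on the log2 scale, from 10.47 and 10.57 to 9.59 and 9.64. Rgs3, an inhibitor of G protein signaling that is in no list, measured 7.11 and 7.39 in Dex, 9.40 and 9.43 in Dex+GW3965, 8.67 and 8.70 in vehicle and 9.64 and 9.44 in GW3965 liver. Rgs3 rose 4.48-fold over Dex (adjusted p = 1.5e-12, limma). Slc25a30, a mitochondrial carrier, measured 7.26 and 7.11 in Dex and 9.28 and 9.22 in Dex+GW3965 liver. Its effects with and without dexamethasone, 2.07 and 2.12, were not called different (adjusted p = 0.75, limma). The remaining large rises were those of Gemin6, Slc34a2 and Gadl1. Gemin6, a component of the SMN complex, rose 3.21-fold from 5.91 and 6.23 to 7.74 and 7.77. Slc34a2, a phosphate carrier, rose by at least 1.21 and Gadl1 by at least 0.69 on the log2 scale, both from Dex levels not above background. Gadl1 passed the filter through the Dex+GW3965 arrays alone, so its call is no support for a change.

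**Figure D3:**
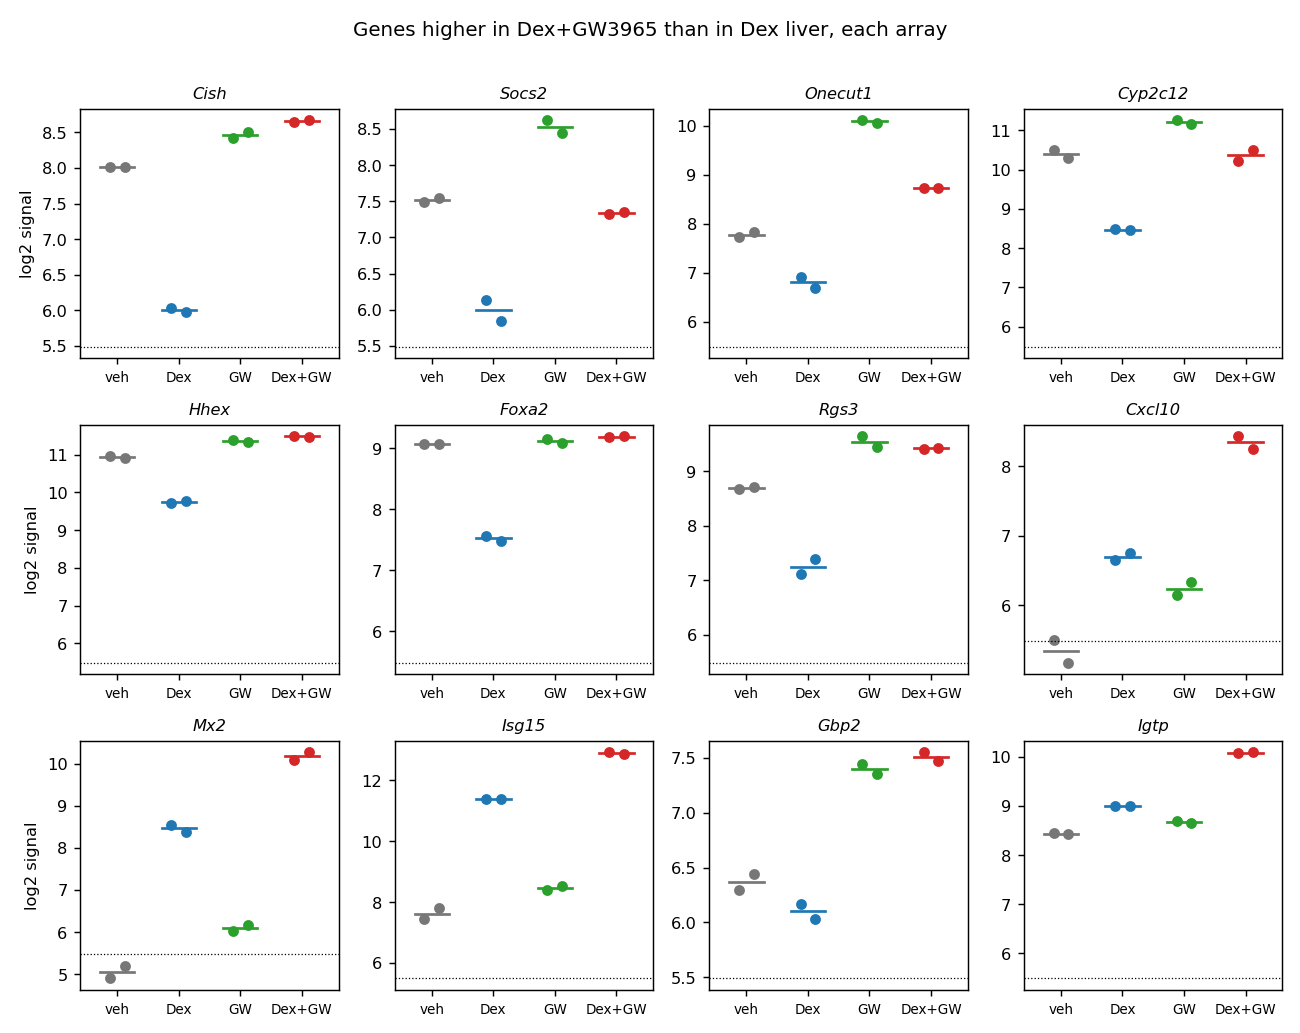
Log2 signal (y axis, own scale in each panel) of 12 genes on each array (points) of the 4 groups, with bars for group means and a dotted line at 5.49, below which a mean is not above background. The Dex+GW3965 arrays lay above the Dex arrays for every gene drawn, genes that were picked among the rises, and for Cish, Socs2, Onecut1, Cyp2c12, Hhex and Foxa2 the Dex arrays were the lowest of all groups.

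Known LXR targets were mostly not called different. Of 25 listed, 21 passed the filter, 5 rose (23.8%, against 14.2% of all genes), 4 fell (19%, against 10.4%) and 12 were not called. The list median was 0.07. The rises numbered 2 without the intensity trend and 3 without Dex replicate b, Dex+GW3965 replicate a or Dex+GW3965 replicate b. Abcg1, a cholesterol exporter, measured 6.89 and 6.69 in Dex, 6.93 and 6.80 in Dex+GW3965, 7.12 and 7.30 in vehicle and 6.78 and 6.82 in GW3965 liver. The arrays of Dex and Dex+GW3965 overlapped (0.08 ± 0.096, SE, adjusted p = 0.64, limma). Abca1, which loads cholesterol onto apolipoprotein A-I, measured 9.75 and 9.87 in Dex and 9.18 and 9.18 in Dex+GW3965 liver on its brightest probe set, a fall of 1.55-fold (adjusted p = 4.7e-06, limma). Its other probe sets differed by -0.53, 0.06 and 0.35 on the log2 scale, so the gene has no single direction. Cyp7a1, which catalyses the first and rate-limiting step from cholesterol to bile acids, measured 10.08 and 10.08 in Dex, 8.44 and 8.32 in Dex+GW3965, 10.58 and 10.65 in vehicle and 6.99 and 7.00 in GW3965 liver. Both GW3965 groups lay below their controls, with differences of -1.70 with and -3.62 without dexamethasone on the log2 scale. These effects differed by 1.92 ± 0.077 (SE, adjusted p = 1e-11, limma). Srebf1, a regulator of fatty acid synthesis, differed by 0.11 (adjusted p = 0.078) and Fasn, the fatty acid synthase, by -0.01 (adjusted p = 0.89, limma for both). The desaturase Scd, at 12.22 and 12.27 in Dex and 12.55 and 12.57 in Dex+GW3965 liver, rose by 0.32 (adjusted p = 3.4e-06, limma). Abcg5, a sterol exporter, was lower (adjusted p = 0.011, limma) by a difference at least as large as -0.29 on the log2 scale. The call was lost without Dex replicate b (-0.31, adjusted p = 0.24), without Dex+GW3965 replicate b (-0.54, adjusted p = 0.14) and without the intensity trend. Its partner Abcg8 was not above background in either group. Without dexamethasone 3 of the 21 genes rose and 10 fell with GW3965, against 5.9% and 15.9% of all genes. The difference of the effects was called positive in 11 and negative in 2, against 16.9% and 7.3% of all genes.

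Genes of bile acid synthesis and transport rose in 10 of 20 (50%) and fell in 4, Cyp7a1 included. Cyp8b1, which sets the share of cholic acid, measured 11.11 and 11.08 in Dex, 11.75 and 11.73 in Dex+GW3965, 11.23 and 11.27 in vehicle and 10.99 and 11.01 in GW3965 liver. Cyp8b1 rose by 0.64 over Dex (adjusted p = 5.3e-10, limma). Amacr, a racemase of bile acid intermediates, rose by 0.81, from 11.55 and 11.46 to 12.31 and 12.32. Slc10a2, the apical bile acid carrier, measured 5.77 and 5.85 in Dex, 7.18 and 7.06 in Dex+GW3965, 7.45 and 7.55 in vehicle and 7.51 and 7.43 in GW3965 liver. Slc10a2 rose 2.47-fold over Dex (adjusted p = 3.9e-09, limma). Slco1a4, an organic anion carrier, fell 2.3-fold, from 10.05 and 9.99 to 8.85 and 8.79, and Nr0b2, the repressor SHP, fell by 0.46 on the log2 scale. Cholesterol synthesis and uptake genes rose in 11 of 21 (52.4%) and fell in 2 (1 without Dex replicate a), with a median of 0.27. Msmo1, a sterol oxidase, measured 9.91 and 9.89 in Dex, 10.54 and 10.46 in Dex+GW3965, 11.10 and 11.12 in vehicle and 11.15 and 11.12 in GW3965 liver. Msmo1 rose by 0.59 over Dex (adjusted p = 6.5e-09, limma). Idi1, an isomerase of the pathway, and Dhcr7, its last reductase, rose by 0.48 and 0.48, while Insig1, which retains the SREBP complex in the endoplasmic reticulum, fell by 0.56 on the log2 scale.

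Fatty acid and triglyceride synthesis genes rose in 9 of 24 (37.5%) and fell in 5 (20.8%). The desaturase Fads1 rose by 0.72, from 10.30 and 10.27 to 10.98 and 11.03, the acetyl-CoA synthetase Acss2 by 0.53 and the elongase Elovl5 by 0.51, while Elovl6, another elongase, and Acaca, the acetyl-CoA carboxylase, fell by 0.43 and 0.31 on the log2 scale. Among lipid droplet and lipase genes 4 of 17 rose and 2 fell (1 without Dex replicate a, Dex replicate b, Dex+GW3965 replicate b or the intensity trend), with the largest rise for the fatty acid binding protein Fabp7, which measured 8.90 and 8.98 in Dex and 10.25 and 10.25 in Dex+GW3965 liver (2.47-fold, adjusted p = 3.6e-13, limma). Fatty acid oxidation genes rose in 7 of 22 (31.8%), a count that was 2 without the intensity trend, 3 without Dex replicate a and 4 without Dex replicate b or Dex+GW3965 replicate a, and fell in 3. With GW3965 alone 13 of the 22 rose, against 5.9% of all genes. The difference of the effects was called negative in 13 and positive in 3, against 7.3% and 16.9% of all genes. Of 20 apolipoprotein and lipoprotein genes 2 rose (0 without the intensity trend and 1 without Dex replicate a or Dex+GW3965 replicate a or after quantile normalization) and 3 fell, the furthest being Angptl4, an inhibitor of lipoprotein lipase, at 10.04 and 9.98 in Dex and 9.37 and 9.27 in Dex+GW3965 liver (-0.69 ± 0.051, SE, adjusted p = 1.6e-08, limma).

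**Figure D4:**
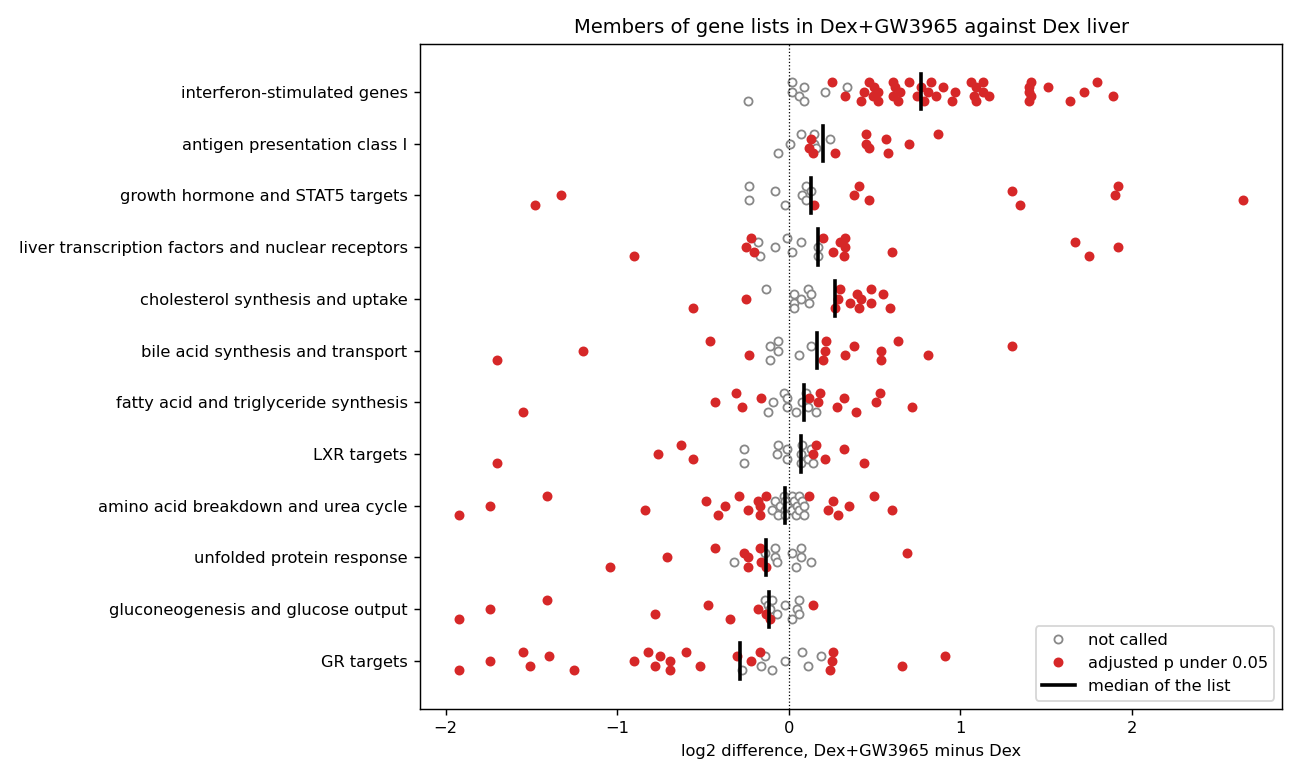
Log2 difference of Dex+GW3965 minus Dex for the members of 12 gene lists (points), red where limma's adjusted p was under 0.05, with a bar at each list's median. Interferon-stimulated genes have a median of 0.77 and GR targets of -0.28, and members of the growth hormone list reach from -1.48 to 2.65.

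Among genes with a single symbol that were above background in both groups, the largest fall was that of a xenobiotic enzyme. Cyp1a1, the hydroxylase induced through the aryl hydrocarbon receptor, measured 11.40 and 11.45 in Dex, 7.81 and 7.85 in Dex+GW3965, 7.36 and 7.48 in vehicle and 5.38 and 5.51 in GW3965 liver. Dex liver was the highest group, and Cyp1a1 was 12.1-fold lower in Dex+GW3965 (-3.59 ± 0.069, SE, adjusted p = 3.1e-16, limma). Of the 7 genes of that receptor's battery that passed the filter, 3 fell, Cyp1a2 by 0.29 on the log2 scale, and 0 rose. Among PXR and CAR targets 5 of 13 fell (38.5%) and 1, Cyp2c6v1, rose by 0.49 (the count was 2 with the 4 compared arrays alone). Por, the electron donor of the cytochromes P450, fell by 0.90, from 10.17 and 10.21 to 9.36 and 9.22, and Alas1, the first enzyme of heme synthesis, by 0.79 on the log2 scale. Glutathione and NRF2 genes rose in 8 of 18 (5 without Dex replicate a or Dex+GW3965 replicate b), led by the glutamate-cysteine ligase subunit Gclm by 0.83, and fell in 4 (2 without Dex+GW3965 replicate b or the intensity trend and 1 without Dex replicate a). Of 18 retinoid and steroid enzymes 6 rose (3 without Dex+GW3965 replicate b) and 4 fell. Hsd17b2, which inactivates estradiol and testosterone, measured 6.00 and 5.90 in Dex, 7.22 and 7.18 in Dex+GW3965, 10.14 and 10.16 in vehicle and 10.02 and 10.01 in GW3965 liver. Hsd17b2 rose 2.37-fold over Dex. Rbp7, a retinol binding protein, fell 2.44-fold, from 7.85 and 7.82 to 6.56 and 6.54.

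Immediate early and MAPK feedback genes rose in 6 of 24 and fell in 7. Dusp6, a phosphatase of ERK, measured 7.45 and 7.46 in Dex, 9.06 and 9.11 in Dex+GW3965, 9.93 and 9.92 in vehicle and 10.03 and 9.99 in GW3965 liver. Dusp6 rose 3.1-fold over Dex (adjusted p = 1.2e-13, limma). The growth regulator Myc rose 2.27-fold, from 5.74 and 5.74 to 6.92 and 6.93, whereas Egr1, an immediate early factor, fell by 0.66 on the log2 scale and Ccn2, a matricellular growth factor, fell 3.39-fold, from 7.97 and 7.92 to 6.20 and 6.17. Ier5 rose 2.72-fold on its brightest probe set and differed by 0 (adjusted p = 1, limma) on the other. Cell cycle and DNA replication genes rose in 2 of 22, Ccnd1 and Ccnd2, and fell in 1, Cdkn1a (2 after quantile normalization and 3 without Dex+GW3965 replicate a). Among p53 targets 3 of 11 rose, led by Phlda3 by 0.86 and Gadd45a by 0.82, and 3 fell. Unfolded protein response genes fell in 9 of 20 (45%), a count of 5 without the intensity trend, and 1 rose. Herpud1, of the degradation complex of the endoplasmic reticulum, fell 2.05-fold, from 11.32 and 11.31 to 10.35 and 10.21, and Edem1, of the same process, by 0.71 on the log2 scale, while the transcription factor Xbp1 rose by 0.69. Heat shock proteins fell in 4 of 10 (1 without the intensity trend and 2 without Dex replicate a, Dex replicate b or Dex+GW3965 replicate b), led by Hsph1 by 0.72 on the log2 scale, and rose in 2 (1 without Dex replicate a or Dex+GW3965 replicate a).

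Among clock genes 4 of 14 rose and 5 fell. Usp2, a deubiquitinase with a daily rhythm, fell 2.14-fold, from 9.36 and 9.38 to 8.31 and 8.24, the cryptochrome Cry1 fell by 0.83 and the period gene Per1 by 0.52 on the log2 scale, while the repressor Nfil3 rose by 0.97, from 7.99 and 8.06 to 9.08 and 8.92. Of 12 genes of metallothioneins, zinc and iron 3 rose, among them Hamp, the iron hormone hepcidin, by 0.38, and 2 fell, furthest the transferrin receptor Tfrc by 0.75 on the log2 scale. Acute phase proteins rose in 5 of 22 (2 without the intensity trend and 3 without Dex replicate a or Dex+GW3965 replicate b), led by Lcn2 by 0.75, with Cp at 0.22 on its brightest probe set and -0.20 (adjusted p = 0.044, limma) on another, and fell in 1, A2m, by 0.39 on the log2 scale. Coagulation and complement genes rose in 7 of 20 (4 without the intensity trend), led by the protease C1s by 0.80, and fell in 0. Respiratory chain genes fell in 4 of 28 (1 without the intensity trend and 2 without Dex replicate a or Dex+GW3965 replicate b) and rose in 2 (0 without Dex replicate a, Dex replicate b, Dex+GW3965 replicate a, the intensity trend or a filter or after quantile normalization and 1 without Dex+GW3965 replicate b), with differences from -0.34 to 0.18. Ribosomal proteins fell in 3 of 11 (5 with the 4 compared arrays alone or after quantile normalization and 1 without Dex replicate a, Dex replicate b, Dex+GW3965 replicate b or the intensity trend), with differences from -0.21 to 0.03.

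Other large falls were those of genes in no list. Fam111a measured 10.01 and 10.18 on the Dex arrays and 3.54 and 3.54 on the Dex+GW3965 arrays, with 4.38 and 4.18 in vehicle and 4.29 and 4.44 in GW3965 liver. It was above background in Dex liver and in no other group, so its difference was at least as large as -4.60 on the log2 scale. Fam111a passed the filter through the Dex arrays alone, so its call is no support for a change. An animal's own level and the treatment cannot be told apart here. Zfp354a, a zinc finger gene, measured 11.28 and 11.30 in Dex, 8.65 and 8.55 in Dex+GW3965, 6.69 and 6.87 in vehicle and 6.52 and 6.40 in GW3965 liver. Zfp354a fell 6.46-fold from Dex (adjusted p = 1.9e-14, limma). Tsku, a secreted leucine-rich protein, measured 9.53 and 9.55 in Dex and 7.57 and 7.55 in Dex+GW3965 liver, with differences of -1.97 with and -0.94 without dexamethasone on the log2 scale. Amd1, of polyamine synthesis, fell 2.77-fold, from 9.05 and 9.10 to 7.62 and 7.59, and Fbxl17l1 3.07-fold, from 7.90 and 7.85 to 6.24 and 6.27. Dipk1c and Lmod2, a leiomodin of actin filaments, were not above background in Dex+GW3965 liver. Their differences were at least as large as -1.42 and -1.02 on the log2 scale, and both also passed the filter through the Dex arrays alone.

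The effects of GW3965 with and without dexamethasone, which share no array, had a Pearson correlation of 0.0875 and a Spearman correlation of -0.0259 over 16253 probe sets. This describes probe sets, which are not independent. Limma called these effects different for 3698 probe sets, positive for 2571 and negative for 1127, where positive means a higher effect in the presence of dexamethasone. After quantile normalization the split was 1843 and 1589. Over genes 1660 differences were positive, or 16.9%, and 718 negative, or 7.3%. Of the 15 largest rises, chosen on the effect with dexamethasone, 10 also rose and 2 fell with GW3965 alone. Of the 15 largest falls, chosen in the same way, 0 rose and 8 fell with GW3965 alone. Over all genes 5.9% rose and 15.9% fell with GW3965 alone. The effects with and without dexamethasone were called different in 14 of the 15 rises and 14 of the 15 falls, calls that this choice favors. For GR targets the difference was negative in 20 of 30 and positive in 4. GW3965 alone raised 10 of these 30 genes and lowered 9, against 5.9% and 15.9% of all genes. Without dexamethasone the effect on Tat was -0.52 (adjusted p = 3.1e-08), on Igfbp1 0.11 (adjusted p = 0.28) and on Lpin1 0.08 (adjusted p = 0.29, limma for all). Cyp1a1 was not above background in GW3965 liver, so its effect without dexamethasone was not measured in full.

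**Figure D5:**
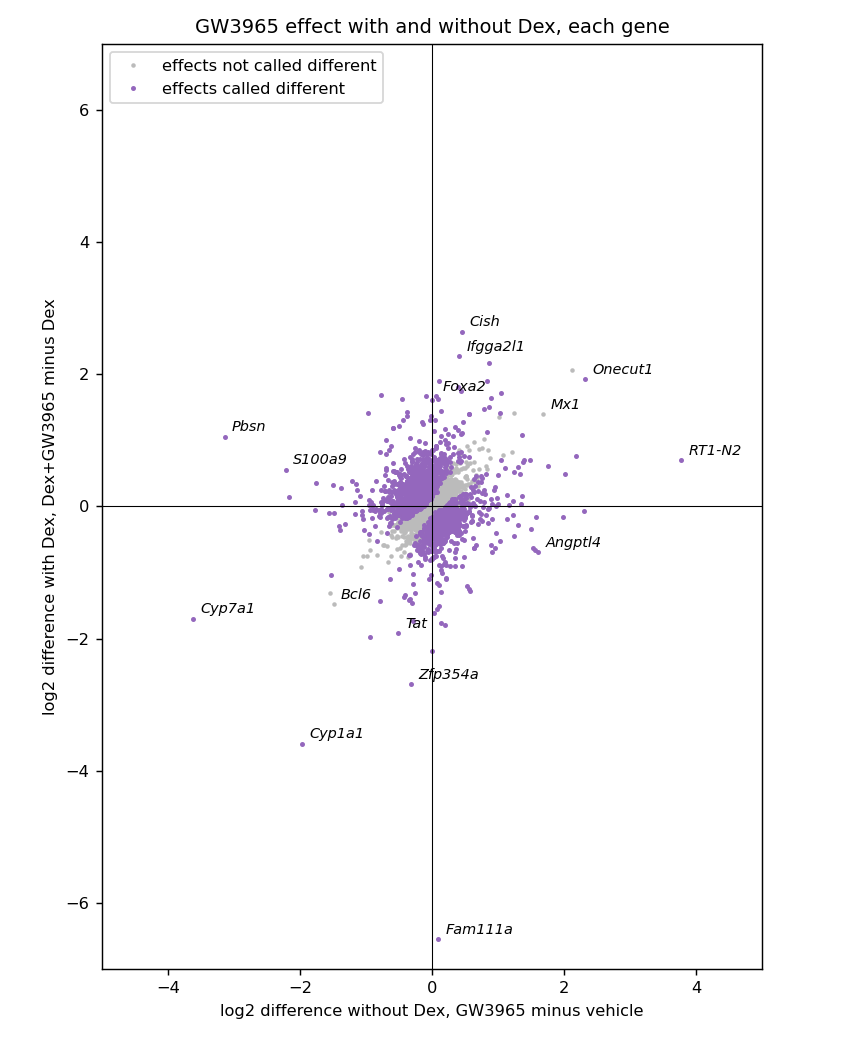
Log2 difference of Dex+GW3965 minus Dex (y axis) against that of GW3965 minus vehicle (x axis) for each of 9829 genes, purple where limma called these effects different. Onecut1 lies at upper right with 2.31 and 1.92, Cyp7a1 at lower left with -3.62 and -1.70, and Fam111a lies lowest at -6.56, a difference measured against a level not above background.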

How the data were processed

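Liver RNA of 8 arrays in 4 groups of 2 was measured, and groups were taken from the labels. The authors deposited log2 signals per probe set, and MAS5 is named, with no version, in the submitters' processing notes. The methods describe a perfect-match signal with MAS background correction, and how arrays were scaled is not given in the sources used here. Values ran from 2.497 to 14.95 and array medians from 5.48 to 5.52, and the number of arrays limits the precision. After 57 controls, 16253 of 31042 probe sets lay above their array's median on at least 2 arrays. A group-means model of the 8 arrays was fitted in R 4.3.3 (limma 3.58.1, eBayes with intensity trend, 4 residual and 12.7 prior degrees of freedom), two-sided, with Benjamini-Hochberg adjustment over all 16253. Symbols came from the platform annotation (1 for 20826 probe sets, several for 436, none for 9780), updated through RefSeq for 20758. A gene is its brightest probe set. Where 1 group mean was under 5.49, the difference was taken against 5.49 as a bound. Counts of changes of at least 2-fold used the fitted difference and not this bound. Named genes were the 15 largest rises and falls without overlap, the receptors and genes the study measured by PCR, up to 5 called members of each list, and the 6 largest positive and negative differences between the GW3965 effects. Some further list members are given in the text, and the count of named results under the alternatives does not cover them. Members, lists and the background rule were chosen with earlier results of these data known. The fit was tested on simulated data. Alternatives covered the arrays fitted, trend, filter, quantile normalization, a replicate block, each array left out, probe sets of a gene averaged, and the methods' test on log ratios.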

Additional observations from a re-analysis of the deposited data

Results flagged for a closer look

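These values stood out because the effect of GW3965 differed between dexamethasone-treated and saline-treated liver by limma's test of the difference, which was called for 3698 probe sets. The differences below are the effect with dexamethasone minus the effect without it, on the log2 scale, and the part of single animals in them was not tested.

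The largest positive difference was that of Pbsn, the prostate protein probasin, at 4.19, with 6.72 and 6.70 in Dex, 7.80 and 7.72 in Dex+GW3965, 8.38 and 8.39 in vehicle and 5.22 and 5.27 in GW3965 liver. S100a9, a calprotectin subunit of neutrophils, followed at 2.77, with 7.22 and 7.25 in vehicle liver and 5.16 and 4.88 in GW3965 liver, and its higher level in Dex+GW3965 than in Dex liver was no longer called without Dex replicate b (0.42, adjusted p = 0.052, limma). Gemin6 differed by 2.46 and Cish by 2.20. For Lum, a matrix proteoglycan, the difference was 2.39, and it was not above background in Dex or Dex+GW3965 liver. Dnpep, an aminopeptidase, differed by 2.31 and was low on the GW3965 arrays (7.74 and 7.71), against 9.82 and 9.95 in vehicle, 9.96 and 9.99 in Dex and 10.17 and 10.07 in Dex+GW3965 liver.

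The largest negative difference was that of Fam111a at -6.64, which was above background on the Dex arrays and in no other group and passed the filter through them alone. RT1-N2, a class I gene, differed by -3.07 and was low on the vehicle arrays (4.79 and 4.42), against 8.38 and 8.37 in GW3965, 8.60 and 8.55 in Dex and 9.27 and 9.27 in Dex+GW3965 liver. RT1-CE12, another class I gene, differed by -2.37, with effects of -0.07 with and 2.30 without dexamethasone. Zfp354a differed by -2.37. Angptl4 differed by -2.29, with effects of -0.69 and 1.60, and Egr1 by -2.21, with effects of -0.66 and 1.56. Pbsn in GW3965 liver, S100a9 in Dex and GW3965 liver and RT1-N2 in vehicle liver had group means not above background (5.49), as had Fam111a and Lum, so the sizes of these differences rest in part on levels that were not measured.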

How the results depend on the processing

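The count of 3698 probe sets was 3802 with the 4 compared arrays alone, 2711 without the intensity trend, 3756 after quantile normalization, 3405 without a filter and 3619 with a filter of at least 4 arrays, and it ran from 2376 to 2923 without 1 of the compared arrays and from 3402 to 4020 without 1 of the others. With probe sets of a gene averaged, 2442 genes were called, 87 of them at least 2-fold, and 2369 had effects that differed with and without dexamethasone. The methods' test on log ratios called 472, all of them among limma's calls, and 22 after Benjamini-Hochberg adjustment. The difference of a minus b had a correlation of 0.0111 between Dex and Dex+GW3965. Over all pairs of groups it ran from -0.232 (vehicle and Dex+GW3965) to 0.0831 (vehicle and GW3965). The labels do not say whether the letters mark a shared step. With the letter as a replicate block 3522 were called, 166 at least 2-fold and 3543 for the difference of effects. No named gene that was called in the main fit changed direction in the alternatives that were run for single genes. These did not include the averaged probe sets, the methods' test or the fits without a vehicle or GW3965 array. A change of sign in an uncalled gene was not counted. Of 2092 values for 210 named results, 1945 stayed as they were, either uncalled or called in the same direction. Of the rest, 146 lost the call and 1 gained it. With 2 arrays a group, an exact permutation test over arrays cannot reach 0.05, so single genes rest on the pooled spread.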
